A study of Equus caballus with 34 samples.

Results

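The layers of the equine follicle wall were compared at early dominance (ED), the first of the 3 stages of the dominant follicle in this series. Samples were chosen by their titles: 5 arrays of granulosa cells (GC ED) and 5 arrays of theca wall (TW ED), 10 of the 34 arrays in all. Each array held Cy3-labelled antisense RNA from 1 sample, hybridised to an Agilent horse array in a single colour. The other groups were late dominant (LD; 5 GC and 9 TW arrays) and preovulatory (PO; 5 and 5), and they entered only where the difference between the layers was set against that at ED. The labels name no treatment. Breed, age, follicle diameter, the way the layers were separated and whether GC and TW came from the same follicles are not given in the sources used here. The design text calls the samples biological replicates. Replicate numbers were given in order of accession, so they name arrays and pair none.

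Granulosa cells are an avascular epithelium that lines the follicular cavity and rests on a basement membrane. The theca outside that membrane holds steroid-producing cells, fibroblasts, smooth muscle, vessels and leukocytes. The layers divide the work of oestrogen synthesis: theca cells respond to luteinising hormone and make androgens from cholesterol, and granulosa cells respond to follicle-stimulating hormone and convert androgens to oestrogens. They also signal to each other, with hedgehog ligands and the activin and inhibin subunits made by granulosa cells as the best known examples.

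Levels are log2 of the processed signal minus the 75th percentile of its array, so a level of 0 is the brightness of that percentile. Levels of different genes come from different probes and were not compared. A difference is GC minus TW in these log2 units, with the standard error (SE) of a limma fit on the 10 arrays, and the p-values were adjusted together by the Benjamini-Hochberg method; a feature whose adjusted p fell under 0.05 was called. Spots well above background made up 64.8% to 74.0% of the spots on the GC arrays and 72.8% to 77.7% on the TW arrays. TW array 4 held 1317 spots flagged as outliers, against 86 to 173 on the other TW arrays and 69 to 366 on the GC arrays. The other arrays of its slide, of later stages, held 1285 to 1718. With 5 arrays in a layer, that number sets the precision. No slide held both layers at ED, so slide and layer cannot be told apart in this comparison. In bulk samples, fewer cells of a type and less RNA per cell cannot be told apart either.

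The labelled layers were checked with marker lists. The mean level of 19 granulosa markers was 1.47 to 2.31 on the GC arrays and -2.81 to -0.50 on the TW arrays. TW arrays 3 and 5 stood apart, at -0.76 and -0.50, while TW arrays 1, 2 and 4 were at -2.81, -2.55 and -2.52. The mean of 17 theca markers was 1.73 to 2.22 on the TW arrays and -2.41 to -1.39 on the GC arrays, with GC arrays 4 (-1.39) and 1 (-1.74) above the other three. GC arrays 1 and 4 lay on the only slides of this group that also held TW arrays. Endothelial markers were well above background for 20 to 22 of 22 genes on each TW array and for 4 to 13 on each GC array. Leukocyte markers were so for 25 to 28 of 32 genes on the TW arrays and 15 to 23 on the GC arrays. Red blood cell genes had mean levels of -6.28 to -5.14 in TW and -6.57 to -4.99 in GC, which overlapped. The granulosa markers AMH and FOXL2, and NR5A1 of the steroid synthesis list, were not analysed here.

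**Figure D1:**
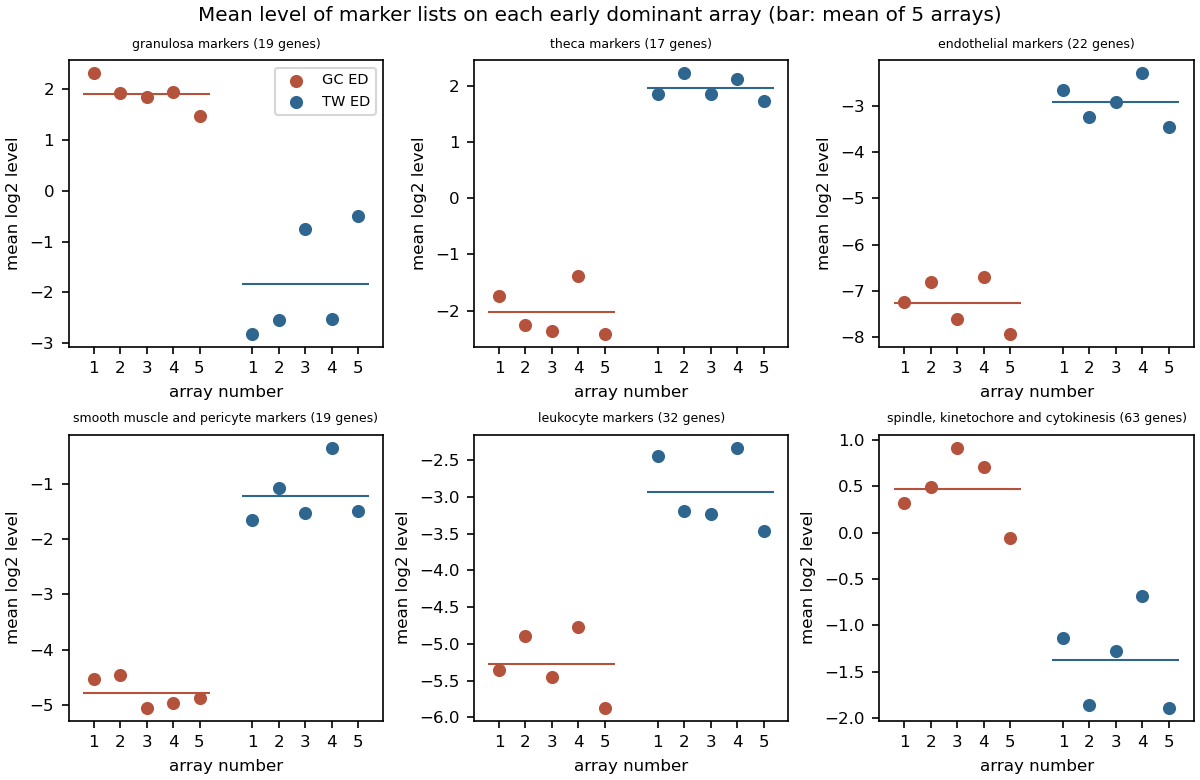
Mean log2 level of 6 gene lists (y axis) on each ED array (x axis, array number), GC in red and TW in blue, with a bar at the mean of the 5 arrays. TW arrays 3 and 5 sit above the other TW arrays for granulosa markers (-0.76 and -0.50), and the layers do not overlap in any panel.

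The probes of 5 genes on which the results turn are printed because each reads one part of what separates the layers: the FSH receptor and an oestradiol-forming enzyme in GC, a hedgehog ligand, a D cyclin of the TW side and a mitotic checkpoint kinase. Each is 60 bases long and written 5′ to 3′, with no part singled out in capitals; those of FSHR and BUB1 end in the stop codon taa. The coordinates are those of the array files, which name no genome build. FSHR lies at chr15:47025062-47025121 on the forward strand. HSD17B1 lies at chr11:19248606-19249362 on the reverse strand, a span of 757 bases, so the 60 bases are not contiguous in the genome. IHH lies at chr6:8623620-8623679 on the reverse strand. CCND1 lies at chr12:19121563-19124262 on the forward strand, a span of 2700 bases. BUB1 lies at chr15:10367449-10367508 on the reverse strand.
FSHR: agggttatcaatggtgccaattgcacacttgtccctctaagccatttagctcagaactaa
HSD17B1: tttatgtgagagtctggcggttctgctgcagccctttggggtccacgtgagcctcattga
IHH: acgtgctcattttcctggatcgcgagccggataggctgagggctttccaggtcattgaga
CCND1: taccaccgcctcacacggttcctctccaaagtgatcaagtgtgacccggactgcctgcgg
BUB1: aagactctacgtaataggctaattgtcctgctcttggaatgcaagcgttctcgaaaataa

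The layers differed widely. Of 24965 features tested, 10979 (44.0%) were called: 4990 (20.0%) were higher in GC and 5989 (24.0%) in TW, and the median difference over all features was -0.02. Counts called in the gene lists below are to be read against these 20.0% and 24.0%. Among the 9451 features with a gene symbol, 1849 were higher in GC and 2179 in TW. Large differences lay mostly on the TW side: 1451 features were over 10-fold higher in TW, against 303 in GC. Of the called features, 467 (176 with a symbol) were well above background on all 5 TW arrays and on no GC array, and 61 (17 with a symbol) the other way. Such features entered the test through the layer where they were bright. Requiring signal above background on 3 of 5 arrays of both layers left 4711 features higher in GC and 4767 in TW. The 10-fold counts were not repeated with that filter. Arrays of the layers did not overlap, with GC above TW, for 15.1% of features and, with TW above GC, for 19.3%. The split depended on scaling: 45.5% of called features were higher in GC here, 55.5% to 57.5% with quantile normalization, normexp or the deposited value table, and 72.7% with median centring, where the median of all features moved to 0.49. With slide as a fixed block in a fit of all 34 arrays, 4071 features were called, 1383 higher in GC and 2688 in TW. In that fit the layers met only on slides 2 and 8, whose only TW arrays were TW LD arrays 2 and 8. A lost call can therefore reflect few arrays, and whether slide accounts for any difference was not tested. The block moved list medians both ways, from 1.87 to 2.39 for spindle genes and from -4.26 to -3.51 for collagens and structural matrix. Among genes described below, that block ended the calls of the GC-side genes AMHR2, ANKRD37, ANO2, BCL2L11, CLU, COL4A5, CYB5A, CYP19A1, FDXR, GYS2, KRT18, MS4A1, OCLN, PAK5, PDK1, PGF, TIMP4 and VEGFA. On the TW side it ended those of ADAMTS1, CDC7, CYP11A1, CYP17A1, DUSP5, EGLN3, GPX3, IGFBP3, MYC, NIM1K, PLAT, SCARB1 and SNAP25. Calls it ended among hormone receptors, cell division genes and NT5E are given with those genes. A fold given for a gene that is well above background on only some arrays of its dim layer rests partly on signal near background and is not exact.

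Genes of the granulosa identity led the GC side. Of 19 measured granulosa markers, 14 were higher in GC, against 20.0% of all features, and none in TW, against 24.0%; their median difference was 3.53. CDH2, the N-cadherin that joins granulosa cells, had levels of 5.25, 5.38, 4.81, 5.45 and 4.69 on the GC arrays and -6.54, -4.88, -0.25, -3.50 and 1.09 on the TW arrays. The layers did not overlap, and TW arrays 5 and 3 were the highest of their layer. The difference was 7.93 (SE 1.24, adjusted p = 0.000429), or 244-fold, and 10.09 (1090-fold) without TW arrays 3 and 5. Those arrays were left out because their granulosa markers were highest. For members of that marker list, here and below, a larger fold without them is therefore partly built in. FSHR, the receptor for follicle-stimulating hormone, was at 0.24, 0.39, 1.09, 0.11 and 0.60 in GC and -8.83, -7.68, -5.43, -8.29 and -3.03 in TW. It was well above background on 2 of the 5 TW arrays, and TW arrays 3 and 5 had its highest TW levels. Its difference of 7.14 (SE 0.95, adjusted p = 0.000141), or 141-fold, became 432-fold without those arrays. The granulosa nuclear receptor NR5A2, which drives steroid enzyme genes, was at 2.80 to 3.41 in GC and -2.50 to -0.95 in TW, a difference of 5.10 (SE 0.30, adjusted p = 1.6e-06).

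Among other granulosa genes, PTHLH had the same pattern of TW arrays, while for KRT18 only TW array 3 stood apart. PTHLH, a parathyroid hormone-like peptide, was at 2.24 to 4.60 in GC and at -4.81, -5.65, -1.11, -4.89 and -0.19 in TW (101-fold, and 347-fold without TW arrays 3 and 5). KRT18, a keratin of simple epithelia, was at 2.60, 2.41, 3.50, 2.81 and -0.65 in GC and at -3.67 to -0.34 in TW, so GC array 5 and TW array 3 overlapped; the difference was 4.81 (SE 0.82, adjusted p = 0.000727). AMHR2, the receptor for anti-Müllerian hormone, was 4.62-fold higher in GC (2.21, SE 0.29, adjusted p = 0.000121). GJA1, the connexin of granulosa gap junctions, was at 0.72 to 1.63 in GC and 0.84 to 1.22 in TW and was not called (0.19, SE 0.20, adjusted p = 0.486).

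Other large GC differences among genes measured in both layers were those of SFRP4, THBS4 and COMP. SFRP4, a secreted WNT antagonist, was at 5.37, 5.05, 5.05, 5.46 and 2.07 in GC and -6.89, -3.16, 0.21, -2.86 and -0.63 in TW, 154-fold higher in GC (SE 1.21 on a difference of 7.27, adjusted p = 0.000636). The matrix glycoproteins THBS4 and COMP were 102-fold and 64.1-fold higher, at 3.56 to 4.83 and 0.79 to 2.44 in GC against -5.0 to 0.94 and -5.46 to -1.78 in TW. TW array 5 had the highest TW level of THBS4 and COMP and the second highest of SFRP4. RAB11FIP4, a regulator of vesicle traffic, PAK5, a kinase, TNNI3, a troponin, and MRO were 52.1-fold, 65.4-fold, 47.0-fold and 49.0-fold higher in GC. In TW below background on all 5 arrays were UNC13C, a protein of vesicle priming that was at least 20.2-fold higher in GC, and GYS2, the liver form of glycogen synthase, at least 10.7-fold. Such bounds set the bright layer's mean against the lowest signal well above background, or the probe's own signal if that was higher.

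**Figure D2:**
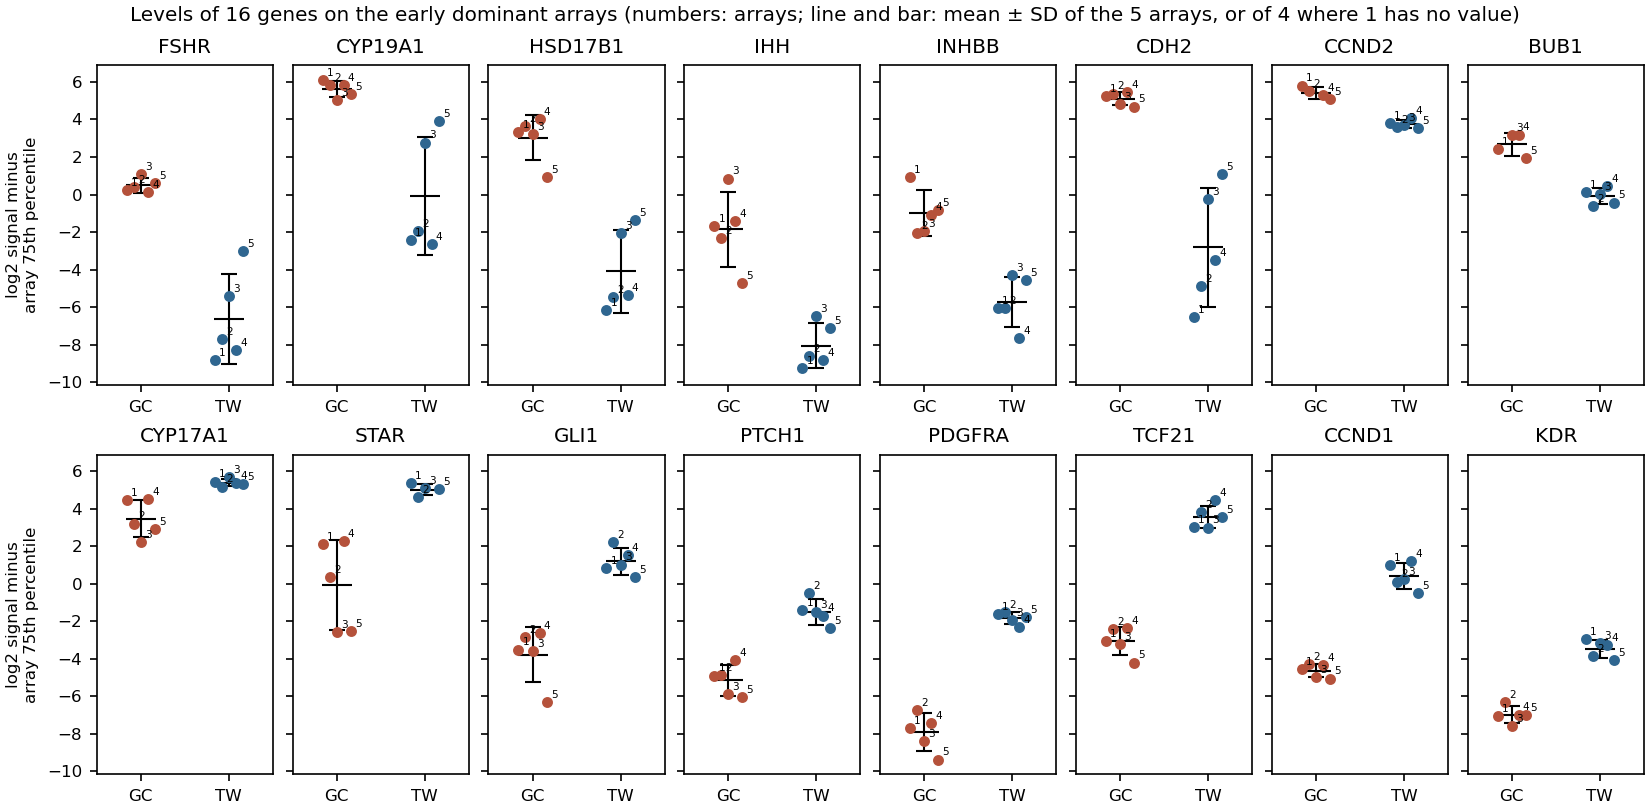
Levels of 16 genes (y axis, log2 units) on the ED arrays, GC in red and TW in blue, each point numbered by its array, with a line and bar for mean ± SD. The layers do not overlap for any of these genes; TW arrays 3 and 5 are the highest of TW for FSHR, CYP19A1, HSD17B1 and CDH2, and GC arrays 1 and 4 are the highest of GC for STAR.

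Theca genes marked the other layer. Of 17 measured theca markers, 16 were higher in TW and none in GC, with a median of -4.01. TCF21, a transcription factor of stromal cells, was at -3.07, -2.42, -3.19, -2.35 and -4.20 in GC and 3.01, 3.81, 3.00, 4.44 and 3.57 in TW. Every TW array was above every GC array by several log2 units, and the difference was -6.61 (SE 0.39, adjusted p = 1.6e-06), or 97.9-fold. PDGFRA, a platelet-derived growth factor receptor of mesenchyme, was 68.2-fold higher in TW and above background on 1 GC array. ACTA2, smooth muscle actin, and MGP, a matrix protein, were 69.1-fold and 58.1-fold higher. LHCGR, the receptor for luteinising hormone, did not differ detectably: it was at -3.54 to -1.39 in GC and -2.40 to -1.94 in TW (-0.13, SE 0.40, adjusted p = 0.829). INSL3, the insulin-like hormone of theca cells, was 2.38-fold higher in TW by the probe used (-1.25, SE 0.30, adjusted p = 0.00589), a call lost with median centring, while its other probe gave -4.21.

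Large TW differences among genes measured in both layers were those of CXCL14, PRSS23, ECSCR and LRRC17. CXCL14, a chemokine, was at -5.63 to -4.95 in GC and 0.74, 2.79, 1.32, 2.69 and 2.43 in TW, 151-fold higher (-7.24, SE 0.39, adjusted p = 1.16e-06). PRSS23, a serine protease, was 133-fold, ECSCR, a regulator of endothelial cells, 112-fold, and LRRC17 95.8-fold higher. FCN3, a lectin of the complement system, was 82.0-fold higher. Genes below background on all GC arrays included EBF1, a transcription factor of stromal and B cells, at least 56.5-fold higher in TW, and HIGD1B, a gene of pericytes, at least 85.4-fold. DACH1 and ESM1, an endothelial proteoglycan, were at least 48.2-fold and 35.8-fold higher.

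Steroid synthesis was divided between the layers. Of 20 genes measured, 9 (45%) were higher in GC and 7 (35%) in TW (median 0.25), against 20.0% and 24.0% of all features. The first steps lay on the TW side. STAR, which moves cholesterol into the mitochondrion, was at 5.34, 4.61, 5.08 and 5.05 on the 4 TW arrays with a value and at 2.10, 0.34, -2.56, 2.28 and -2.54 in GC. The GC arrays spread over almost 5 log2 units, with arrays 1 and 4 highest, and the layers did not overlap (-5.10, SE 1.04, adjusted p = 0.00297). CYP11A1, which cuts the cholesterol side chain, was at 3.06 to 3.86 in GC and 4.59 to 5.35 in TW, 2.95-fold higher in TW (-1.56, SE 0.22, adjusted p = 0.000215). FDX1, the ferredoxin that feeds electrons to CYP11A1, was 6.30-fold and TSPO, a mitochondrial outer membrane protein, 4.23-fold higher in TW. CYP17A1, the enzyme that makes androgens, was saturated on all 5 TW arrays and reached 4.45, 3.21, 2.24, 4.52 and 2.90 in GC, so its difference was at least 3.79-fold (adjusted p = 0.00301).

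The steps that form oestrogens lay on the GC side, and so did HSD3B2. CYP19A1, the aromatase, was at 6.11, 5.81, 5.05, 5.82 and 5.35 in GC, saturated on 4 of these arrays, and at -2.44, -1.96, 2.77, -2.62 and 3.93 in TW. TW arrays 3 and 5 were far above the other TW arrays. The measured difference was 5.69 (SE 1.24, adjusted p = 0.00341) and 7.97 without those arrays. Saturation caps the GC signal, so no exact fold can be given; its other probes gave 8.25 to 9.56. HSD17B1, which forms oestradiol from oestrone, was at 3.31, 3.63, 3.21, 4.01 and 0.94 in GC and -6.16, -5.47, -2.06, -5.38 and -1.35 in TW, 137-fold higher in GC (7.10, SE 0.98, adjusted p = 0.000182) and 413-fold without TW arrays 3 and 5. HSD3B2, a 3-beta-hydroxysteroid dehydrogenase, was saturated on every GC array and at -3.18, -2.89, 3.8, -1.73 and 4.80 in TW, at least 48.5-fold higher in GC (adjusted p = 0.0109). It was at least 329-fold higher without TW arrays 3 and 5, and without GC arrays 1 and 4 its call was lost (adjusted p = 0.0598).

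Electron donors did not follow one layer. POR, the reductase that serves CYP17A1 and CYP19A1, was 8.98-fold higher in GC (3.17, SE 0.32, adjusted p = 2.1e-05), CYB5A, cytochrome b5, 4.22-fold, and FDXR, the reductase that feeds ferredoxin, 3.46-fold. These 3 were named after their values were seen, and POR was saturated on 1 and CYB5A on 2 GC arrays. Cholesterol synthesis and uptake leaned to TW: of 27 genes, 12 were higher in TW and 1 in GC, with a median of -0.68. LIPA, the lysosomal lipase that frees cholesterol from its esters, was at -5.52 to -3.50 in GC and -1.41 to -0.14 in TW (11.8-fold), and SCARB1, the receptor that takes up high-density lipoprotein cholesterol, at -2.59 to -0.07 and 0.49 to 1.72 (4.4-fold). The enzymes TM7SF2 and MVK were 5.77-fold and 3.84-fold higher in TW. NPC2, which carries cholesterol out of lysosomes, was the 1 gene higher in GC (1.35, SE 0.27, adjusted p = 0.00198).

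Receptors for hormones showed few large differences beside FSHR. Of 14 measured, 6 (42.9%) were higher in GC and 2 (14.3%) in TW (median -0.13), against 20.0% and 24.0% of all features. PGR, the progesterone receptor, was at -0.27, -0.63, -0.78, -0.51 and -0.62 in GC and -2.54, -2.12, -2.53, -2.15 and -2.25 in TW, 3.38-fold higher in GC (1.76, SE 0.16, adjusted p = 1.06e-05). NR3C2, the mineralocorticoid receptor, was 4.48-fold and ESR1, an oestrogen receptor, 2.09-fold higher in GC. GHR, the growth hormone receptor, was 2.57-fold higher with overlapping arrays, a call lost without TW arrays 3 and 5 (adjusted p = 0.0598). With slide as a fixed block the calls of PGR, NR3C2, ESR1 and GHR were lost, and that of ESR1 also in the other fits of all 34 arrays. INSR, the insulin receptor, went the other way, at -3.67 to -2.41 in GC and -0.19 to 0.40 in TW (10.2-fold higher in TW, SE 0.27 on a difference of -3.35, adjusted p = 5.27e-06). ESR2 was not analysed here.

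The activin, inhibin and BMP system was split, with 9 of 27 genes (33.3%) higher in GC and 12 (44.4%) in TW (median -0.25). For all features these shares were 20.0% and 24.0%. The subunits of activin and inhibin were on the GC side. INHBB was at 0.94, -2.05, -1.94, -1.07 and -0.81 in GC and -6.05, -6.05, -4.30, -7.64 and -4.57 in TW, 26.6-fold higher (4.73, SE 0.71, adjusted p = 0.000314). INHBA, INHA and FST, the follistatin that binds activin, were saturated on all 5 GC arrays and were at least 11.5-fold, 5.61-fold and 10.1-fold higher in GC. Without TW arrays 3 and 5 those bounds were 25.1-fold, 9.37-fold and 15.5-fold. BAMBI, a decoy receptor of the family, was at 5.17 to 5.97 in GC and 1.37 to 3.15 in TW (12.2-fold), and ID2, a target of BMP signals, at 4.11 to 4.85 and 0.04 to 1.77 (10.6-fold). Among genes of TGF-beta and BMP signalling, levels in TW were 35.1-fold higher for TGFB1, 30.0-fold for TGFBR2, 16.3-fold for BMP6 and 12.9-fold for BMP4. TGFB1 and TGFBR2 were well above background on 2 GC arrays each and BMP6 on 3, and another probe of TGFBR2 gave -2.61.

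Hedgehog genes were divided by role. The ligands were higher in GC and the receptors and targets in TW. Of 10 measured genes 2 (20%) were higher in GC and 7 (70%) in TW, against 20.0% and 24.0% of all features. IHH, the Indian hedgehog ligand, was at -1.69, -2.31, 0.85, -1.41 and -4.73 in GC and -9.25, -8.63, -6.50, -8.82 and -7.11 in TW, where it was well above background on 2 arrays. GC array 5 was the lowest of its layer and still above all TW arrays (6.20, SE 0.91, adjusted p = 0.000272). DHH, the desert hedgehog ligand, was at 0.70, 0.80, 0.42, 0.57 and -0.50 in GC and -4.45 to -2.92 in TW, 15.7-fold higher (3.97, SE 0.34, adjusted p = 8.66e-06). GLI1, a transcription factor and target of the pathway, was at -3.51, -2.82, -3.57, -2.64 and -6.32 in GC and 0.84, 2.23, 1.02, 1.51 and 0.34 in TW, 31.1-fold higher in TW (-4.96, SE 0.65, adjusted p = 0.000123). PTCH1, the hedgehog receptor, was 12.5-fold, HHIP, a decoy receptor, 16.2-fold, and BOC, a co-receptor, at least 9.79-fold higher in TW. One other probe of PTCH1 gave 0.06, and the rest -3.59 to -2.99.

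Notch and WNT genes also fell on both sides. In the Notch system 4 of 9 genes were higher in TW: the ligands DLL4 (46.9-fold, well above background on 1 GC array) and JAG1 (27.7-fold), the receptor NOTCH4 (at least 5-fold) and DLL1 (at least 3.38-fold). DLL4, NOTCH4 and DLL1 entered the fit through TW, and with a filter on both layers 5 Notch genes were left, 1 higher in GC and 1 in TW (median 0.17). HEY2, a transcription factor downstream of Notch receptors, was the 1 gene higher in GC, at 2.33, 2.80, 2.56, 3.26 and 1.17 against -2.79 to -1.54 in TW (4.50, SE 0.39, adjusted p = 8.78e-06). In the WNT system 4 of 22 genes (18.2%) were higher in GC and 6 (27.3%) in TW, near the 20.0% and 24.0% of all features, and with quantile normalization 6 and 4. Among them, DKK3, a secreted dickkopf-family protein, was 14.6-fold higher in GC and TCF7L2, a transcription factor of the pathway, 17.9-fold higher in TW. In the insulin-like growth factor system 5 of 14 (35.7%) were higher in GC and 6 (42.9%) in TW. IGF2 was at -1.70, -3.69, -5.40, -3.21 and -4.89 in GC and 0.66 to 1.94 in TW (36.4-fold higher in TW), and the binding protein IGFBP3 was 30.7-fold higher in TW. IGF2BP2, an RNA-binding protein, was at 0.52 to 1.88 in GC and -4.37 to -0.88 in TW (21.1-fold higher in GC).

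Genes of cell division were higher in GC without exception among those measured. All 63 measured genes of the spindle, kinetochore and cytokinesis were called higher in GC, with differences from 0.60 (BUB3) to 2.86 (CDC25C) and a median of 1.87. They were detected in TW as well, where 62 or 63 of the 63 were well above background on each array. Their mean level was -0.06 to 0.92 on the GC arrays and -1.89 to -0.68 on the TW arrays. BUB1, a kinase of the mitotic checkpoint, was at 2.42, 3.17, 3.19 and 1.95 on the 4 GC arrays with a value and 0.15, -0.59, 0.04, 0.45 and -0.43 in TW. The layers did not overlap, and BUB1 was 6.78-fold higher in GC (2.76, SE 0.32, adjusted p = 8.99e-05). MKI67, a marker of cycling cells, was at -0.72, -0.15, 0.11, -0.41 and -0.67 in GC and -1.87, -2.77, -2.11, -1.21 and -3.0 in TW, 3.55-fold higher (1.83, SE 0.33, adjusted p = 0.0011). CDC25C, a phosphatase that starts mitosis, was 7.25-fold, SGO1, a protector of centromeres, 5.90-fold, and NDC80, a kinetochore protein, 5.42-fold higher in GC. Without TW arrays 3 and 5, 55 of the 63 were called (median 1.72), and without GC arrays 1 and 4, 61 (median 1.83). In a fit of all 34 arrays 44 were called (median 1.87), and with slide as a fixed block 8 (median 2.39). That block ended the calls of BUB1, MKI67, CDC25C, SGO1, NDC80, CENPF, ASPM and the transcription factor E2F8.

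DNA replication and repair genes followed the same side with smaller differences. Of 41 replication genes, 27 were higher in GC and 1 in TW (median 1.06). RFC3, a subunit of the clamp loader, was at 2.62 to 3.50 in GC and 0.04 to 1.27 in TW (5.87-fold), and FEN1, a flap nuclease, was 4.31-fold higher in GC. CDC7, a kinase that fires replication origins, was the exception, 1.58-fold higher in TW with overlapping arrays (-0.66, SE 0.20, adjusted p = 0.0223); its call was lost in 9 alternatives. Of 31 repair and checkpoint genes 26 were higher in GC and none in TW (median 1.27), with RAD54L, a recombination factor, 4.29-fold and BRIP1, a helicase, 3.73-fold higher. Without TW arrays 3 and 5, 17 of the 31 were called. With slide as a fixed block, 5 of the 41 replication genes (median 1.20) and 4 of the 31 repair genes (median 1.53) were called.

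**Figure D3:**
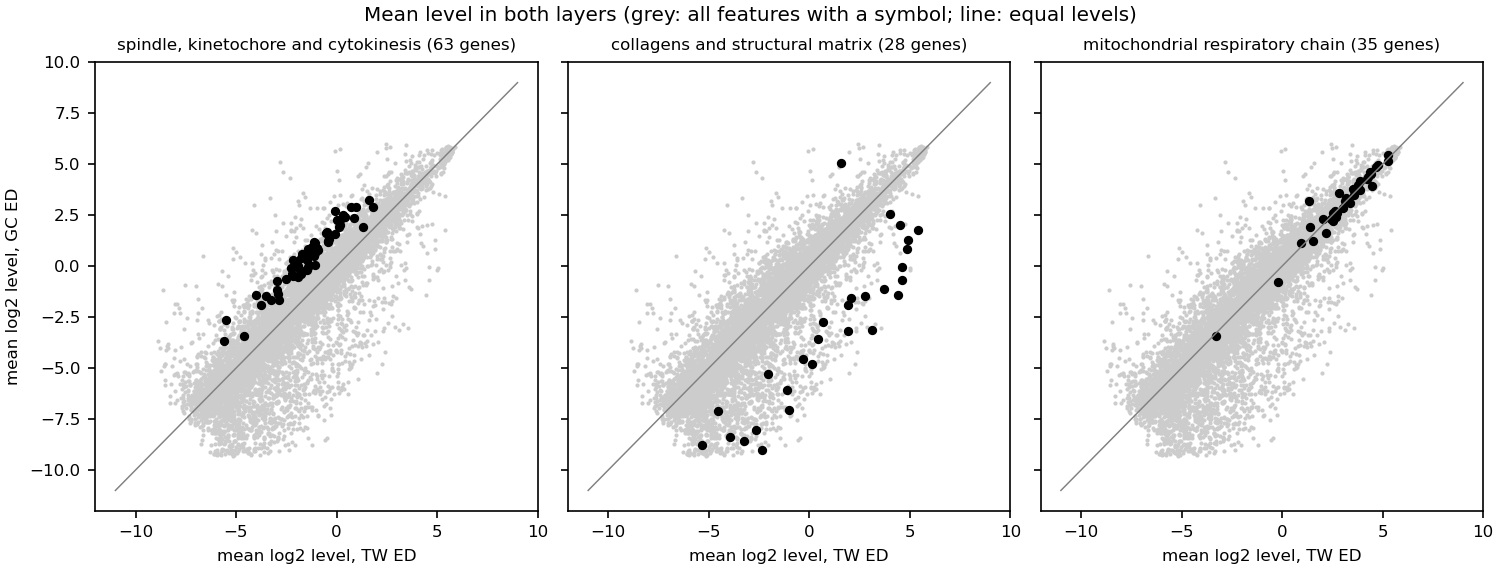
Mean log2 level in GC (y axis) against TW (x axis) at ED for all features with a symbol (grey) and for 3 lists (black), with a line of equal levels. The 63 spindle genes lie above the line, 27 of 28 matrix genes below it, and respiratory chain genes along it.

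The switches of cell cycle entry were divided. Of 25 measured, 10 (40%) were higher in GC and 3 (12%) in TW (median 0.29), against 20.0% and 24.0% of all features. The D cyclins, which start the cycle in response to growth factors, took opposite sides. CCND1 was at -4.53, -4.29, -4.97, -4.34 and -5.05 in GC and 1.01, 0.12, 0.24, 1.20 and -0.48 in TW, 33.2-fold higher in TW (-5.05, SE 0.32, adjusted p = 1.87e-06). CCND2 was at 5.80, 5.52, 5.29 and 5.08 on the 4 GC arrays with a value and 3.54 to 4.07 in TW, 3.22-fold higher in GC (1.69, SE 0.20, adjusted p = 8.98e-05). E2F8, a transcription factor of the cycle, was 5.55-fold higher in GC, and MYC 2.77-fold higher in TW. Of the inhibitors, CDKN1B was 3.44-fold higher in GC, at -4.25 to -3.20 against -6.42 to -5.33 in TW. CDKN1A was not called (-0.26, SE 0.63) and was above background on 3 GC and 4 TW arrays.

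Vessels, muscle and stroma were on the TW side. Of 20 endothelial markers 19 were higher in TW and none in GC (median -4.89). Genes below background in GC entered the test through TW, here and in the other lists of the TW side. With bounds in place of such differences the endothelial median was -4.43. For mesenchymal genes it was -2.93, against -3.6 without bounds, and for muscle -3.42, against -3.44. TM4SF18 was at -8.32, -7.74, -9.72, -6.79 and -9.64 in GC and -0.19, -0.73, -0.68, 0.60 and -1.37 in TW, 251-fold higher, and was above background on 1 GC array. PECAM1, an adhesion molecule of endothelium, was at -7.17 to -3.97 in GC and 0.69 to 1.95 in TW (95.4-fold), and EMCN, endomucin, was below background on all GC arrays (at least 24.7-fold). Of 19 smooth muscle and pericyte markers 17 were higher in TW (median -3.44), such as TAGLN (55.4-fold), DES (at least 33.8-fold) and CNN1 (at least 17.3-fold). The size of TW-side medians depended on scaling. Relative to all features, the endothelial median was -4.87 here, -2.03 with the deposited values and -1.17 with normexp. Here and with normexp, medians were -3.42 and -2.07 for muscle and -3.58 and -0.73 for mesenchymal genes. They were -3.04 and -1.18 for angiogenic, -2.86 and -1.07 for leukocyte and -4 and -3.4 for theca genes.

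Of 27 angiogenic genes 4 were higher in GC and 19 in TW (median -3.06). VEGFA, the main growth factor of vessels, was at -1.59, -1.84, -1.73, -1.90 and -2.78 in GC and -2.90, -2.94, -3.01, -3.14 and -3.56 in TW, 2.21-fold higher in GC (1.14, SE 0.24, adjusted p = 0.00281). PGF, a growth factor of the same family, was 2.48-fold higher in GC with overlapping arrays, and VEGFD, a lymphatic growth factor, was above background only in GC (at least 4.93-fold). KDR, the receptor for VEGFA, was at -7.60 to -6.31 in GC and -4.07 to -2.93 in TW, 11.6-fold higher in TW (-3.53, SE 0.28, adjusted p = 5.57e-06), and its other probes gave -5.47 to -2.31.

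Leukocyte genes were higher in TW for 21 of 27 markers and in GC for 2 (median -2.87). CD74, the invariant chain of antigen-presenting cells, was at -7.66 to -6.05 in GC and -1.09 to -0.09 in TW (76.9-fold, above background on 1 GC array), and the complement subunits C1QA and C1QB of macrophages were 68.3-fold and 54.8-fold higher. PTPRC, the common leukocyte antigen, was not called by the probe used, at 4.25 to 4.86 in GC and 4.12 to 4.36 in TW (0.30, SE 0.15, adjusted p = 0.132). Its other probes gave -2.40 to 0.17, and the mean of its probes -0.77 (adjusted p = 0.0374). S100A9, a protein of neutrophils, was 6.42-fold higher in GC, with overlapping arrays and 2 TW arrays above background, and MS4A1, a B cell antigen, was 2.17-fold higher in GC. Each of these calls was lost in 4 alternatives, and both without GC arrays 1 and 4.

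Chemokines, complement and matrix were mostly on the TW side. Of 23 cytokines, chemokines and adhesion molecules 18 were higher in TW and none in GC (median -3.82). CCL2, which draws monocytes, was 97.9-fold and CXCL12, a stromal chemokine, 63.8-fold higher in TW. Some other probes of CXCL12 gave -6.17 to -5.79, and the rest -0.60 to 0.72. Of 19 complement genes 15 were higher in TW and 1, CLU, in GC (1.30, SE 0.27, adjusted p = 0.00255). Of 28 collagens and structural matrix genes 27 were higher in TW, with COL14A1 at least 25.8-fold, SPARCL1 76.0-fold and FBLN5 66.1-fold. SPARCL1 was at -1.06, -2.64, -4.38, -1.40 and -6.12 in GC, highest on arrays 1 and 4. VCAN, the versican of the granulosa matrix, was the 1 gene of this list higher in GC, at 4.79 to 5.39 against 1.14 to 2.23 in TW (3.48, SE 0.24, adjusted p = 2.5e-06).

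Of 20 basement membrane genes 3 (15%) were higher in GC and 10 (50%) in TW (median -1.51), against 20.0% and 24.0% of all features. HSPG2, the perlecan core protein, was at -0.05, 0.25, -0.27, 0.70 and 0.22 in GC and -4.96, -4.20, -4.45, -4.06 and -3.43 in TW, 21.0-fold higher in GC (4.39, SE 0.28, adjusted p = 1.98e-06). COL4A5, a type IV collagen chain, was 3.43-fold higher in GC, while NID1, a linker of the membrane, was 42.5-fold higher in TW. Of 24 matrix proteases and inhibitors 2 (8.33%) were higher in GC and 12 (50%) in TW (median -2.02). PLAT, the tissue plasminogen activator, was 51.1-fold and ADAMTS1 50.5-fold higher in TW. TIMP4, a metalloprotease inhibitor, was 4.18-fold higher in GC. Of 23 mesenchymal genes 14 (60.9%) were higher in TW, such as SNAI2 (84.7-fold) and FAP (74.9-fold), and 3 (13%) in GC. Among the latter was NT5E (1.42, SE 0.32, adjusted p = 0.00392), whose call was lost in the 3 fits of all 34 arrays. Junction genes had 3 of 17 (17.6%) higher in GC and 5 (29.4%) in TW, near the 20.0% and 24.0% of all features. OCLN, a protein of tight junctions, was 5.42-fold higher in GC and CDH11, a mesenchymal cadherin, 10.5-fold higher in TW.

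**Figure D4:**
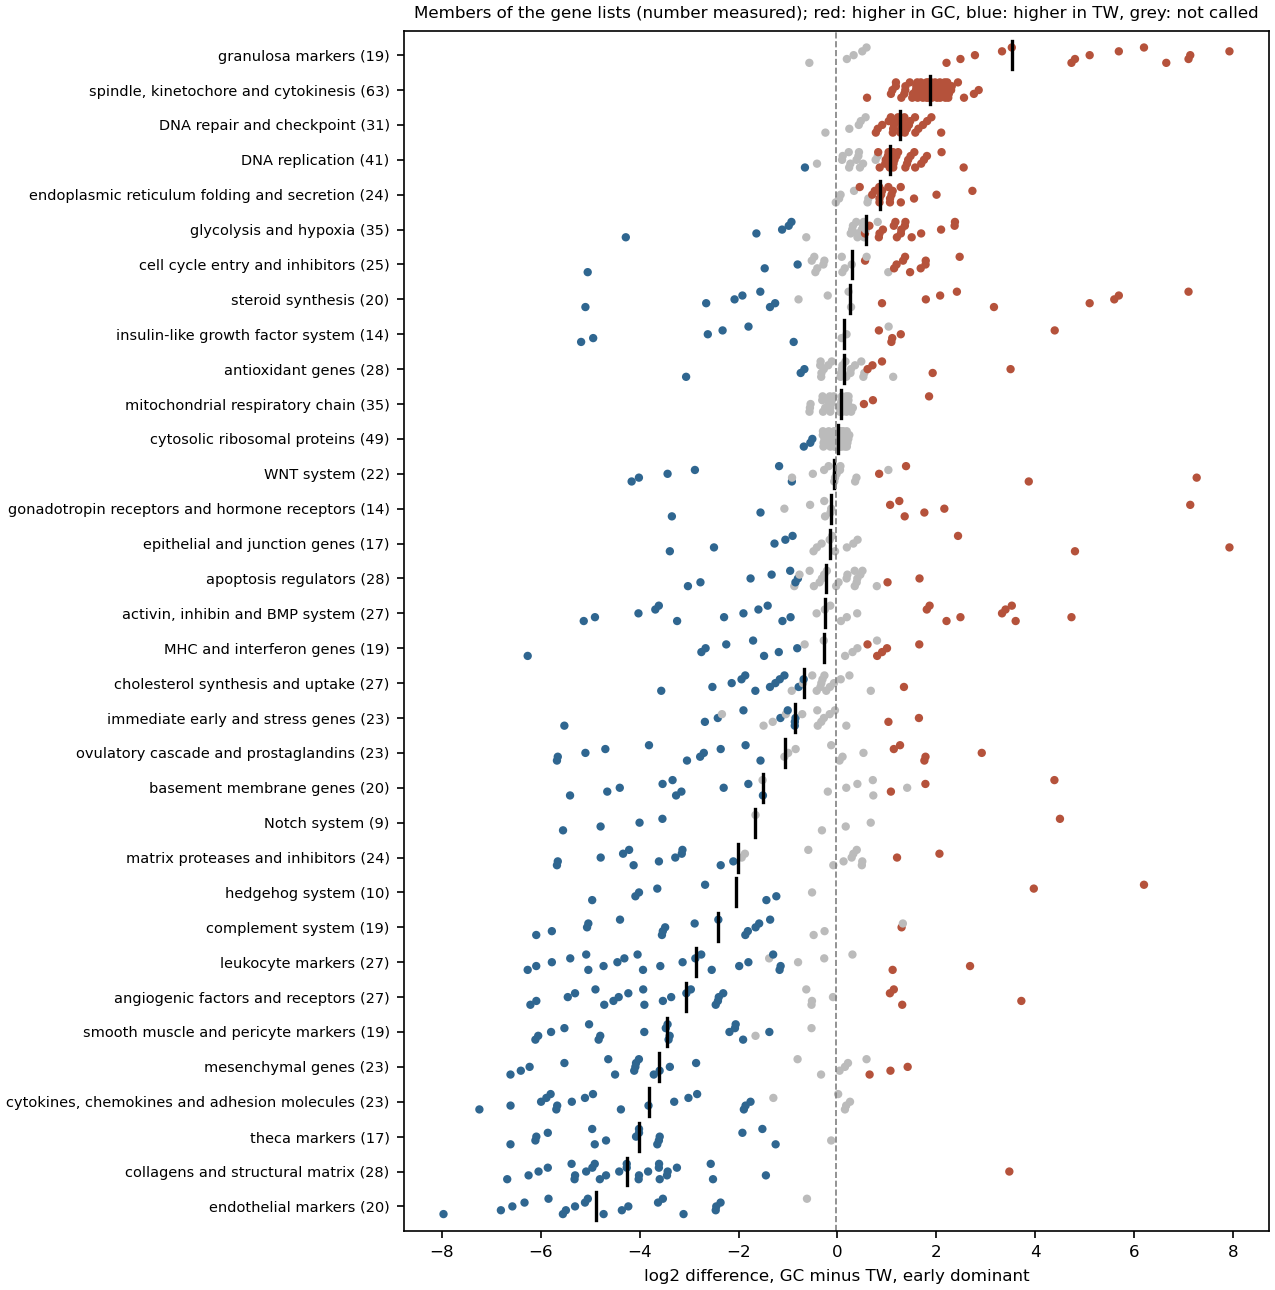
Log2 difference between the layers at ED (x axis) for each measured member of the gene lists (y axis, number measured), red where called higher in GC, blue where called higher in TW and grey where not called; the black bar is the list's median and the dashed line the median of all features, -0.02. Spindle genes lie between 0.60 and 2.86, and the lists of endothelial, collagen and theca genes have medians below -4.

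Genes of protein folding in the endoplasmic reticulum were higher in GC for 18 of 24 (75%) and in TW for none (median 0.87). For all features the shares were 20.0% and 24.0%. HERPUD1, a stress-induced membrane protein, was at 3.32 to 3.64 in GC and 0.42 to 1.04 in TW (6.64-fold, adjusted p = 1.73e-06), and the chaperone HYOU1 was 4.01-fold higher. Glycolysis and hypoxia genes were higher in GC for 17 of 35 (48.6%) and in TW for 5 (14.3%), with a median of 0.57. SLC16A3, a lactate exporter, was 5.2-fold, ANKRD37 5.17-fold and PDK1, which holds pyruvate out of the mitochondrion, 4.28-fold higher in GC, with arrays of SLC16A3 and PDK1 overlapping. EGLN3, an oxygen-sensing hydroxylase, was 19.4-fold higher in TW.

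Housekeeping lists had medians near 0 with this scaling. Respiratory chain genes had a median of 0.07, with 3 of 35 higher in GC (NDUFS1 by 1.85) and none in TW. Cytosolic ribosomal proteins had a median of 0.01, with 3 of 49 higher in TW (RPL35 by 0.68 on the log2 scale). With median centring 34 of the 49 ribosomal genes were higher in GC and none in TW (median 0.52, where the median of all features was 0.49), and RPL35 was not called. With quantile normalization, both medians lay below that of all features, by 0.33 and 0.29. Antioxidant genes had 5 of 28 (17.9%) higher in GC and 3 (10.7%) in TW (median 0.13), against 20.0% and 24.0% of all features. With median centring these counts were 14 and 1. GCLC, the first enzyme of glutathione synthesis, was at 1.89 to 3.33 in GC and -1.43 to -0.19 in TW (11.3-fold), and GPX3, a secreted peroxidase, was 8.34-fold higher in TW. Among apoptosis regulators, BCL2L11, a pro-apoptotic protein, was 3.16-fold higher in GC and BCL2A1, a survival protein, 8.14-fold higher in TW. Of 28 measured, 2 (7.14%) were higher in GC and 7 (25%) in TW, against 20.0% and 24.0% of all features. That split turned with the other scalings: 6 and 4 with quantile normalization, 8 and 4 with normexp, 7 and 4 with the deposited values and 10 and 3 with median centring.

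By the probes used, genes of the response to the ovulatory surge were not a GC set at this stage. Of 23 in that list 5 (21.7%) were higher in GC, near the 20.0% of all features, and 11 (47.8%) in TW (median -1.07). The probe used for PTGES gave a difference of 0.04, while its other probes gave 3.14 to 3.55. BTC, a ligand of the epidermal growth factor receptor, was above background only in GC (at least 2.83-fold), and SNAP25, of vesicle release, was 25.9-fold higher in TW (-4.70, SE 0.96, adjusted p = 0.00293; 4 TW arrays with a value). Of 23 immediate early and stress genes 2 (8.7%) were higher in GC and 9 (39.1%) in TW (median -0.86). The phosphatases DUSP6 and DUSP5 were 46.0-fold and 6.41-fold higher in TW and GADD45B 3.14-fold higher in GC. MHC and interferon genes had 5 of 19 (26.3%) higher in GC and 8 (42.1%) in TW (median -0.28), against 20.0% and 24.0% of all features.

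The difference between the layers was then set against that at the later stages, in a limma fit on all 34 arrays. Against LD no feature of 27991 was called (0%), the smallest adjusted p was 0.0628, and 2139 features had an unadjusted p under 0.05. The GC LD arrays were unlike each other: their mean levels of spindle genes were -1.46, -2.80, -4.83, -0.17 and 0.32. Such spread limits what this comparison can call, so it does not show that the layers differed alike at ED and LD. An LD median need not describe any 1 array. Other settings of limma gave 0 to 7 calls, and leaving out 1 array gave 0 to 273, the highest without GC LD array 5. At PO the difference from ED was called for 8195 of 27949 features: GC minus TW was higher at ED for 4379 (15.7%) and lower for 3816 (13.7%). With median centring, 36.8% of the called features were higher at ED, against 53.4% here.

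Cell division genes were higher in GC at ED and lower in GC at PO. The differences between the stages share the ED arrays with the comparison above, so the ED values are not a second measurement. The median GC minus TW of the 63 spindle genes was 1.87 at ED, 0.57 at LD and -3.04 at PO, and 58 of them were called higher at ED than at PO, against 15.7% of all features. In GC the list's median level was 0.58 at ED and -4.51 at PO, and in TW -1.32 and -1.80. For NDC80, GC minus TW was 2.44 at ED, 0.10 at LD and -5.88 at PO. At PO the gene was above background on no GC array, so its PO difference and its change are not exact. The difference between stages was 8.32 (SE 1.35, adjusted p = 7.24e-05). MKI67 had differences of 1.83, 0.23 and -4.73, BUB1 2.76, 1.37 and -1.89, and E2F8, SGO1, CENPF and ASPM, of the same process, changed by 7.06, 7.18, 7.51 and 7.44 between ED and PO. Replication and repair lists had 32 of 41 and 26 of 31 genes higher at ED, and medians at PO of -0.95 and -1.73.

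Some granulosa genes differed less between the layers at PO. Of 19 granulosa markers, 5 had a higher GC minus TW at ED than at PO, against 15.7% of all features, and 1 a lower one, against 13.7%, with medians of 3.53 and 1.14. HSD17B1 had differences of 7.10 at ED, 3.90 at LD and -0.34 at PO, a change of 7.45 (adjusted p = 0.00101). IHH went from 6.20 to 0.15, INHBB from 4.73 to -0.56 and KRT18 from 4.81 to -1.49. Among hedgehog genes higher in TW at ED, GLI1 was at -4.96 at ED and -0.65 at PO, PTCH1 at -3.64 and 0.09, and HHIP at -4.01 and 1.98, all called. STAR went from -5.10 to -0.80 and CXCL14 from -7.24 to -1.39, also called. NOS2, nitric oxide synthase, and ANO2, a chloride channel, had GC minus TW of 3.99 and 3.05 at ED and -3.92 and -4.19 at PO.

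Several genes with the largest change the other way were below background in GC at ED. There GNAZ, NIM1K, MYL7, SLC5A12 and NDP were well above background on 0 of 5 GC arrays and AGPAT4, HPD and P4HA3 on 4. For genes on 0 arrays, the ED differences and the changes rest on signal near background and are not exact. GNAZ, a G protein subunit, had a difference of -5.17 at ED and 3.22 at PO, a change of -8.38 (adjusted p = 7.63e-06). NIM1K, MYL7, AGPAT4, SLC5A12, HPD, P4HA3 and NDP changed by -8.20, -7.18, -7.13, -6.95, -6.91, -6.74 and -6.59. Respiratory chain genes had a median difference of 0.06 at ED and 0.97 at PO, with 23 of 35 called lower at ED. Glycolysis genes had 0.61 and 1.40, with 13 of 36 called lower. Of all features 13.7% were called lower at ED. Endothelial and theca lists kept their side: their medians were -4.55 and -4.01 at ED and -5.35 and -4.54 at PO.

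**Figure D5:**
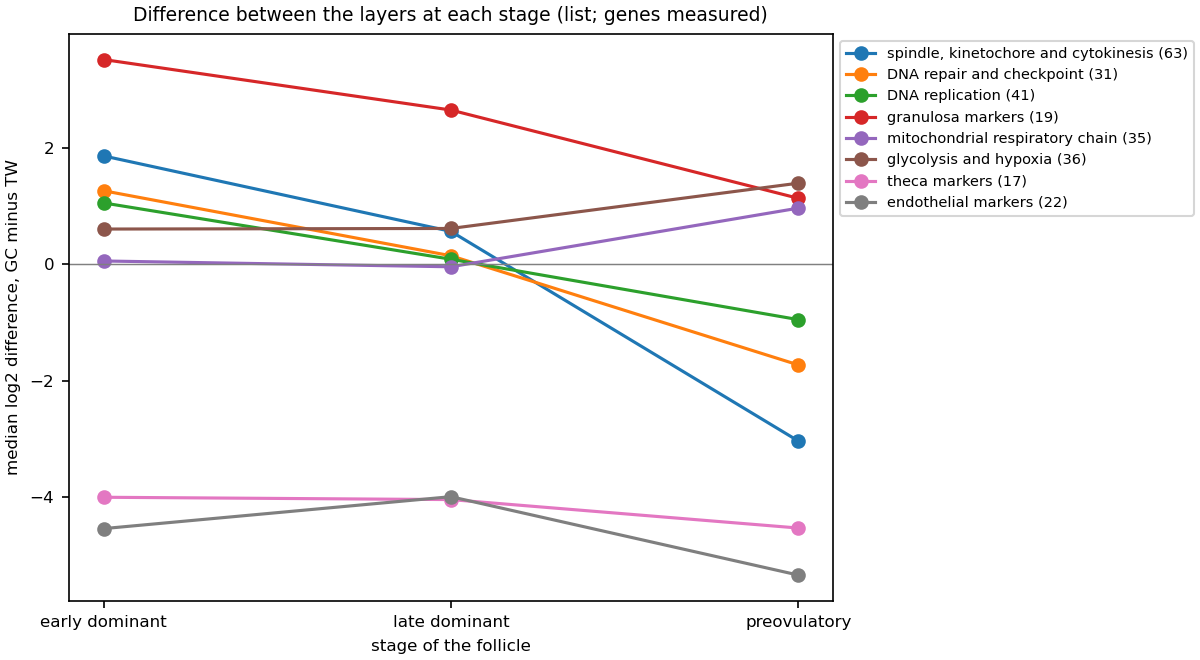
Median log2 difference between GC and TW (y axis) for 8 gene lists at ED, LD and PO (x axis); each point is the median over the genes measured in all 3 stages. The spindle list goes from 1.87 at ED to -3.04 at PO, and the theca and endothelial lists lie between -5.35 and -4.

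Because no slide held both layers at ED, GC ED was also set against TW LD on the only slides that held both. On slide 2 (GC ED array 1 and TW LD array 2), 10551 of 10899 called features (96.8%) had the direction of the main comparison, and on slide 8 (GC ED array 4 and TW LD array 8) 10520 of 10884 (96.7%). GC ED arrays 1 and 4 also entered the comparison that called these features, so part of this agreement is built in. These are values of 1 array against 1, with no test, and they compare different stages of the theca. Leaving out TW arrays 3 and 5 left 8267 called features, 3413 higher in GC and 4854 in TW. Leaving out GC arrays 1 and 4 left 9389, 4147 and 5242. What part RNA of the other layer had in any of these differences was not tested.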

How the data were processed

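The 10 ED arrays were Agilent 1-colour arrays of labelled RNA (RNA of high integrity amplified with an oligo(dT)-T7 primer, per the labels' protocols), read with Feature Extraction 9.5.3.1 per the file headers (9.1 per the submitters' processing notes). The deposited intensity (processed signal) was put on the log2 scale and centred on the 75th percentile of its array (43603 probes, controls aside), leaving out outlier-flagged spots and keeping saturated ones. The deposited value table holds log2 values that correlated at 0.999987 or more with quantile-normalized log2 mean signal; its column medians were 7.29, its scale is log2 with no gene centring, and it served as an alternative. Names came from the files' accessions and RefSeq: 22180 probes had a symbol (12148 symbols) and 21423 had none. A gene's probe was the one with the highest mean over all 34 arrays. A feature had to exceed background clearly on 5 or more fitted arrays to enter limma 3.58.1 (R 4.3.3; lmFit, eBayes), with Benjamini-Hochberg adjustment over all features; later stages were compared by interaction terms over 34 arrays. A layer below background on all arrays, or saturated on all, gave a bound in place of a fold. Scripts were tested on simulated data. P-values measure the spread between samples; the labels do not say whether they are separate animals. The array number limits precision.

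Alternatives were other scalings, filters, probe rules, array weights, slide as a block, values within slides, and leaving out single arrays; leaving out TW arrays 3 and 5, or GC arrays 1 and 4, was chosen after seeing the data. Named genes were, in each direction, the 12 largest called differences among genes detected in both layers without overlap, the 6 largest bounds, up to 4 called members of each list, members against their list's direction, the 8 largest called changes between stages, and a fixed set of follicle genes; the text prints part of these, and some are not reported here. The members and lists were chosen with earlier results of these data known. POR, CYB5A and FDXR were named after their values were seen. The design text describes groups spread over the slides, but by the file headers no slide held both layers at ED.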

Additional observations from a re-analysis of the deposited data

Results flagged for a closer look

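Among 334 groups of 5 arrays tested for a single array apart from the other four, 22 (6.6%) had one; chance gives about 1 in 20. GC array 5 was low for HSD17B1 (0.94), KRT18 (-0.65), SFRP4 (2.07), GLI1 (-6.32), VEGFA (-2.78) and DES (-9.52). GC array 1 was high for TGFBR2 (-5.41), CDKN1B (-3.20) and COL14A1 (-7.13), and had the lowest share of spots well above background, 64.8%. GC array 4 was low for RPL35 (4.12) and GC array 3 for HPD (-9.02). TW array 3 was high for KRT18 (-0.34) and VEGFD (-7.64). TW array 4 was low for HYOU1 (-4.05) and NDUFS1 (0.34), high for MS4A1 (-0.65) and SLC16A3 (-2), and held 1317 outlier spots. TW array 5 was low for IGFBP3 (-4.32), CDC7 (-1.91) and DUSP5 (-3.36).

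The difference between the layers at ED minus that at PO was called for several named genes, by limma's interaction term. Those with a higher value at ED were NDC80 (8.32), NOS2 (7.91), CENPF (7.51), HSD17B1 (7.45), ASPM (7.44), ANO2 (7.23), SGO1 (7.18), E2F8 (7.06), MKI67 (6.56), KRT18 (6.29), IHH (6.05), INHBB (5.29), ID2 (4.80), BUB1 (4.65), VCAN (3.8), HEY2 (3.35), CDH11 (3.02) and KDR (1.94). Those with a lower value at ED were GNAZ (-8.38), NIM1K (-8.20), MYL7 (-7.18), AGPAT4 (-7.13), SLC5A12 (-6.95), HPD (-6.91), P4HA3 (-6.74), NDP (-6.59), HHIP (-5.99), CXCL14 (-5.85), GLI1 (-4.31), STAR (-4.30) and PTCH1 (-3.74). The cause of these differences was not tested.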

How the results depend on the processing

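Of 157 named genes tested, 153 were called at ED, 104 of them under every alternative that tested them and 49 not. The count of 10979 was 9651 to 11143 without 1 array (4238 to 5181 higher in GC, 5413 to 5962 in TW); median centring called 10676 features higher in GC, and slide as a fixed block called 4071 (1383 and 2688). Against LD, where no feature was called, normexp gave 4 (3 higher and 1 lower at ED), the deposited values 7 (5 and 2), slide as a fixed block 2 (1 and 1), and the filter on both layers, the mean of probes and slide as a random block 1 each (0 and 1); without 1 array the count was 0 to 273 (0 to 99 and 0 to 174), with 273 without GC LD array 5, 9 without GC LD array 4 and 1 without TW LD array 1. Against PO, array weights gave 12824 (6763 and 6061), and leaving out 1 array 7154 to 8812. Of 36 list medians relative to all features, 5 stayed within 1 SD between arrays under every alternative. List medians relative to all features turned sign, by more than 1 SD between arrays, for the respiratory chain with quantile normalization (-0.33), normexp (-0.22) and the deposited table (-0.26), and for apoptosis (0.05) and ribosomal genes (-0.29) with quantile normalization. The filter on both layers turned Notch (0.15) and MHC genes (0.14), and the fixed slide block MHC genes (0.28). Within slide 2, hormone receptors (0.93), the IGF system (-0.19), WNT (0.46), basement membrane (0.06) and junction genes (0.20) turned, as did KRT18 (-1.53) and CLU (-0.20). Within slide 8, receptors (0.43), the IGF system (-0.72) and basement membrane (0.04) did. Other lists near 0 changed sign by less, such as antioxidant genes with quantile normalization (-0.17) and within slide 8 (-0.18) and the activin system within slide 8 (0.11). With the mean of probes PTPRC was -0.77 at ED and COMP -1.07 in ED against PO, where CD74 was 0.89 with normexp. The cause was not tested. No paired analysis was possible because replicate numbers follow the order of accession and pair no samples. Probes below background, or saturated, on every array of a layer have only bounds, and folds of probes so on some arrays are not exact.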
